A study of Ovis aries and Mus musculus with 10 samples.

Results

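The miR-200 family is described here in mammary gland of sheep and mouse. Its members were the 5 mature mouse miRNAs mmu-miR-200a, mmu-miR-200b, mmu-miR-429, mmu-miR-200c and mmu-miR-141, chosen by the miRNA name given for each spot of the arrays. They are 5 of the 567 mouse miRNAs measured. The series holds 10 arrays, each hybridised with Cy3-labelled total RNA of snap-frozen mammary tissue from untreated animals. The sheep arrays are of a ewe in cycle at day 15, of gestation days 14, 64 and 125 and of lactation day 60. The mouse arrays are of CD1 virgins, of gestation days 10 and 17 and of lactation days 2 and 10. There is 1 array per stage and day, so no stage has replicates, and the labels do not say whether an array holds 1 animal or a pool. No genotype or other allele is given. The probes are those of a mouse array, so the sheep RNA was read with probes made for mouse miRNAs. Whole tissue was used, and in such samples fewer cells of a type and less RNA per cell cannot be told apart.

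miRNAs pair with messenger RNAs mainly through the seed, a short stretch near their 5′ end, and lower the output of those messengers. The miR-200 family is known for keeping epithelial cells epithelial: it represses ZEB1 and ZEB2, transcription factors that switch off E-cadherin, and these factors in turn repress the family's genes. The mammary ducts and the milk-secreting alveoli are epithelium, which expands into the fat pad and stroma during pregnancy. The genes lie in a pair of clusters, each thought to be transcribed as a unit, and the members also fall into a pair of seed groups that differ in a single base. miR-200b, miR-200c and miR-429 share the first seed, and miR-200a and miR-141 share the other, so that each cluster holds both seeds.

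By the mouse genome coordinates in the array files (mm9), the first cluster spans 1786 bases of chromosome 4, from 155428025 to 155429810. The parts of the mature miRNAs that the probes cover lie at chr4:155428025-155428043 for miR-429, chr4:155429020-155429037 for miR-200a and chr4:155429794-155429810 for miR-200b. The second cluster spans 423 bases of chromosome 6, with miR-141 at chr6:124667935-124667951 and miR-200c at chr6:124668342-124668357. In the RefSeq gene table of the sheep assembly ARS-UI_Ramb_v3.0, 3 of the 5 members were matched. MIR200A and MIR200B are listed next to each other on the same chromosome there, and MIR200C is on another.

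All 5 members were detected on all 10 arrays. Each was read by 2 probes of different length and by 17 to 20 usable spots per array, and no spot was saturated. Each array was scaled to a reference level, the 75th percentile over the 94 miRNAs seen on every array, and put on a log2 scale, so that 0 stands for that level. The reference level itself ran from 245.6 signal units in mouse lactation day 10 to 1998 in the sheep in cycle, and 125 to 208 miRNAs were detected per array. The standard error between spots of a member on 1 array was at most 0.031 on the log2 scale, which is technical error and holds no spread between animals. The mouse virgin and gestation day 10 arrays were on a second slide and the other 8 arrays on the first. Levels of different miRNAs cannot be compared, since probes differ in brightness; only a member's change between arrays can.

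Across the sheep stages the family was low in mid gestation and high in late gestation. miR-200b, in the order cycle, gestation days 14, 64 and 125 and lactation day 60, had log2 levels of 0.76, 0.21, -0.57, 1.59 and 1.48. miR-200c, its seed partner on the other chromosome, had 0.46, 0.42, -0.25, 1.87 and 1.75. For both, gestation day 64 was lowest, and late gestation and lactation stood above the other 3 arrays. miR-200a had log2 levels of -0.99, -1.20, -1.92, 0.41 and -0.0068. miR-141, which shares its seed with miR-200a, had 0.12, 0.33, 0.14, 1.62 and 1.40. It was the one member whose lowest sheep array was not day 64. miR-429 had -2.68, -3.42, -4.74, -1.73 and -2.60, and its day 64 signal of 58.3 units came near the floor of -5.11 set for dim signals.

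In mouse the order of the stages was plainer. miR-200b, in the order virgin, gestation days 10 and 17 and lactation days 2 and 10, had log2 levels of -1.36, -0.52, 0.56, 1.45 and 2.18, higher on each array than on the one before. miR-200c had -0.84, -0.34, 0.67, 1.64 and 2.08, and miR-200a had -3.02, -2.30, -0.98, -0.40 and 0.83, both in the same order. miR-141 had -1.70, -1.12, 0.63, 1.48 and 1.47, level between the lactation days. miR-429 had -1.72, -0.80, -0.13, 0.26 and -0.40, with its highest array at lactation day 2. The lowest to highest range in mouse was 14.5-fold for miR-200a, 11.7-fold for miR-200b, 9.09-fold for miR-141, 7.54-fold for miR-200c and 3.94-fold for miR-429. In sheep the order differed, with miR-429 ranging 8.07-fold, miR-200a 5.05-fold and miR-141 2.82-fold.

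**Figure D1:**
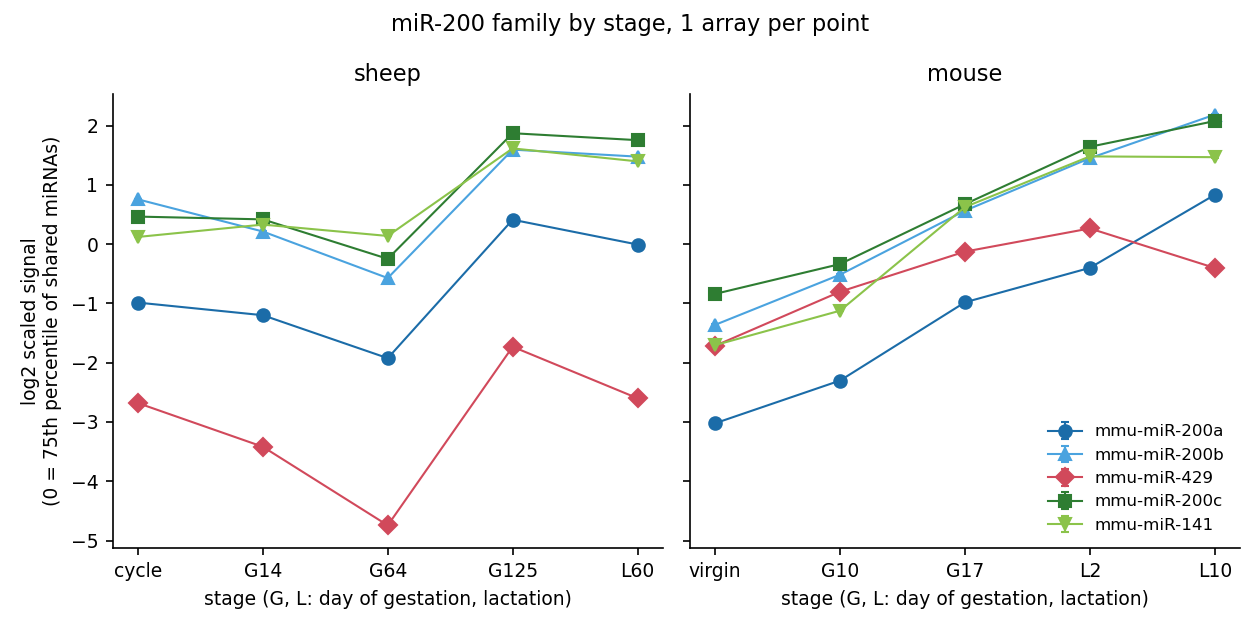
The log2 scaled signal (vertical axis) of each member is plotted by stage for sheep (left) and mouse (right), 1 array per point, with the standard error between spots as bars smaller than most symbols. The sheep lines are lowest at gestation day 64 for all members except miR-141 (0.12 in cycle), and the mouse lines climb from virgin to lactation day 2, after which miR-429 alone of the 5 goes clearly down, from 0.26 to -0.40.

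Taken step by step, the 5 members differed in 1 direction in 6 of the 8 intervals between neighbouring stages, with 1 array on each side and therefore no test. From sheep gestation day 14 to day 64 all 5 were lower, by differences from -1.33 for miR-429 to -0.19 for miR-141. From day 64 to day 125 all 5 were higher, by 1.48 for miR-141 to 3.01 for miR-429. That step of miR-429 was above those of 99.5% of the 213 miRNAs tested, and that of miR-141 above 91.1%. From day 125 to lactation all 5 were lower again, with differences from -0.87 for miR-429 to -0.12 for miR-200b and miR-200c. This last direction depended on the scaling: with the 75th percentile over all miRNAs miR-200b and miR-200c were 0.24 and miR-141 0.14 higher in lactation, and with quantile normalization miR-200b was 0.49 and miR-200c 0.32 higher and miR-141 at 0. In mouse all 5 were higher at gestation day 10 than in the virgin (0.50 to 0.91), both arrays of the second slide. All 5 were also higher at day 17 than at day 10 (0.68 to 1.75), a step between arrays of different slides. The median step over the 213 tested miRNAs was 0 in each of these intervals. A miRNA at the floor on both arrays of a step has a step of exactly 0, and 28 of the 213 were at the floor on all arrays.

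The mouse steps after birth depended on the scaling too. With scaling, all 5 members were higher at lactation day 2 than at gestation day 17, by 0.39 for miR-429 to 0.97 for miR-200c. Without scaling between arrays all 5 were lower, from -0.86 to -0.28, while the median of all tested miRNAs was -0.84. So 4 of 5 members stood above that median and miR-429 was just below it. From lactation day 2 to day 10, miR-200a was higher by 1.23 and miR-200b by 0.73 with scaling, whereas miR-429 differed by -0.67. Without scaling, 2 of 5 members were higher in that step. The authors' deposited value table gave all 5 higher in it, miR-429 by 0.011. The step from sheep day 64 to day 125 was upward for all 5 members under each scaling and value source tried. The step from sheep day 14 to day 64 had 1 member higher, miR-141 by 0.099, with the percentile over all miRNAs. The mouse steps up to gestation days 10 and 17 were upward for all 5 with and without scaling, but 1 of 5 and 2 of 5 were higher in the authors' deposited value table, while the medians of all tested miRNAs were -0.36 and -0.34.

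To set late gestation against earlier gestation over both species, sheep day 125 and mouse day 17 were compared with sheep days 14 and 64 and mouse day 10. All 5 members were higher in late gestation, within 1.43 and 1.69 on the log2 scale. miR-200c was 1.43 ± 0.41 (SE) higher and miR-141 1.50 ± 0.43 higher, each with a limma adjusted p of 0.221. miR-200a (1.67 ± 0.64), miR-200b (1.48 ± 0.61) and miR-429 (1.69 ± 0.67) each had an adjusted p of 0.342. None of the 5 passed the threshold of 0.05 after Benjamini-Hochberg adjustment over the 213 miRNAs, and 4 had an unadjusted p below it. Of all 213 miRNAs 0 were called (0%), and 28 had an unadjusted p below 0.05. Without scaling between arrays, where the median of all tested miRNAs was -0.12, the 5 members were 1.19 to 1.45 higher. In sheep alone, all on 1 slide, the late minus earlier differences were 1.38 for miR-141, 1.77 for miR-200b, 1.79 for miR-200c, 1.97 for miR-200a and 2.35 for miR-429. In mouse they were 0.68 for miR-429, 1.01 for miR-200c, 1.08 for miR-200b, 1.32 for miR-200a and 1.75 for miR-141, between arrays of different slides. miR-429 had the largest difference of the family in sheep and the smallest in mouse, and this contrast between species was not tested.

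Lactation and late gestation differed less. Over both species the lactation minus late gestation difference was -0.35 ± 0.67 for miR-429, 0.49 ± 0.43 for miR-141, 0.57 ± 0.64 for miR-200a, 0.66 ± 0.41 for miR-200c and 0.74 ± 0.61 for miR-200b. No member was called by limma (adjusted p from 0.609 to 1), in a comparison that called 0 of 213 miRNAs (0%) with 27 at an unadjusted p below 0.05. The 95% interval for miR-200c ran from -0.37 to 1.68, so a difference of either direction is within the error. Without scaling the 4 positive differences turned negative, from -0.47 for miR-141 to -0.22 for miR-200b. The median of all tested miRNAs was -0.60 there, so these 4 stayed above it. In mouse alone, with scaling, lactation minus late gestation was 1.25 for miR-200b and 1.185 for miR-200c. Both were above their late minus earlier gestation differences of 1.08 and 1.01. For miR-200a (1.20), miR-141 (0.85) and miR-429 (0.058) it was the smaller of the pair. In sheep alone it was below 0 for every member, from -0.87 for miR-429 to -0.12 for miR-200c.

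Against all gestation days together, lactation was higher in all 5 members, by a median of 1.48. Over all miRNAs tested the median was -0.0018 (-0.17 with a floor 4 times lower). Limma called none of the 5 (adjusted p from 0.239 for miR-200c to 0.824 for miR-429), and it called 6 of 213 miRNAs, which is 2.82%. Without scaling, where the median of all tested miRNAs shifted to -0.67, the members' median was 0.39 and miR-429 turned to -0.47. Against animals not pregnant, lactation was higher by 0.89 for miR-429 to 2.38 for miR-141. None of the 5 was called (adjusted p from 0.138 to 0.652), in a comparison that called 8 of 213 (3.76%), and 4 of the 5 had an unadjusted p below 0.05. These sizes leaned on the mouse virgin array: without it miR-200b was 1.03, miR-200a 1.39, miR-200c 1.55, miR-141 1.71 and miR-429 -0.048, none with an unadjusted p below 0.05 (limma adjusted p from 0.566 to 1). With slide as a term the members other than miR-429 were 1.20 to 1.43 and without scaling 0.92 to 1.20, again none with an unadjusted p below 0.05, and miR-429 was 0.35 and -0.28. In sheep alone that difference was 0.081 for miR-429, 0.72 for miR-200b, 0.98 for miR-200a, 1.28 for miR-141 and 1.29 for miR-200c, 1 array on each side. In mouse it was 1.65 for miR-429, 2.70 for miR-200c, 3.18 for miR-200b and miR-141 and 3.24 for miR-200a, with the virgin array on the second slide. A model with a mean for each species and stage class asked if sheep and mouse differed in their lactation minus gestation difference. The sheep value minus the mouse value lay between -1.02 for miR-141 and 0.30 for miR-429, and no member was called (adjusted p of 1 each) where 2 of 213 were (0.939%). Its standard errors were 1.22 to 1.62, so only differences much larger than these could have been seen.

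Between the species, miR-429 stood apart from the rest of its family. Its 5 sheep arrays ran from -4.74 to -1.73 and its 5 mouse arrays from -1.72 to 0.26. The sheep day 125 and mouse virgin arrays nearly met. With stage class in the model it was lower in sheep by 2.35 ± 0.64 on the log2 scale (a log2 difference of -2.35, 5.11-fold, limma adjusted p = 0.0418), the only member called. In the same comparison 46 of 213 miRNAs (21.6%) were called, so 1 called member of 5 is close to that share. The other members were 0.51 for miR-200c, 0.55 for miR-200b, 0.74 for miR-200a and 0.84 for miR-141 higher in sheep, with adjusted p from 0.301 to 0.537. With slide as a term, miR-200a (-0.028), miR-200b (-0.18) and miR-200c (-0.030) turned to the other side of 0, so their direction is not settled.

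The direction of miR-429 held in each of 20 alternatives, from -2.87 on the first slide alone to -1.21 without scaling, but the call held in 5 of them. It was kept with normexp background correction, the brightest probe, the lower floor, and without sheep gestation day 64 or day 125. It was lost without any of the other 8 arrays (adjusted p from 0.0556 to 0.125). It was also lost with the percentile over all miRNAs (0.0861), quantile normalization (0.0619), no scaling (0.171), the authors' deposited value table (0.117), no filter (0.146), slide as a term (0.0792) and the first slide alone (0.12).

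Both probes of miR-429 showed the difference. The probe covering 18 bases was lower in sheep (a sheep minus mouse difference of -2.50) and that covering 19 bases likewise (-2.46). The 8 probes of the other members ran from 0.15 to 0.68. The longer probe of miR-429 gave nearly the same signal as the shorter, with a log2 ratio of -0.15 ± 0.076 (SD, n = 5 arrays) in sheep and -0.19 ± 0.13 in mouse. For the other members the longer probe was brighter, with mean log2 ratios from 1.79 for miR-200c to 2.70 for miR-200b in sheep and from 2.05 for miR-200a to 2.84 for miR-200b in mouse. How well the probes match the sheep sequences was not tested.

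These probe ratios also differed between slides. For miR-200c the log2 ratio of longer to shorter probe was 2.82 in the mouse virgin and 2.80 at gestation day 10, both on the second slide. It was 1.58, 1.63 and 1.81 on the other mouse arrays and between 1.48 and 2.03 in sheep. miR-200b showed the same to a smaller extent, with 3.10 and 3.09 on the second slide and 2.35 to 2.91 on the first. miR-141 had 2.96 and 2.79 against 2.23 to 2.70, and miR-200a 2.20 and 2.17 against 1.73 to 2.01. miR-429 went the other way, with -0.30 and -0.35 against -0.21 to -0.028. So on the pair of arrays where the mouse members were lowest, the shorter probes of 4 of them were also weak relative to the longer, and the part of the slide in those low levels was not tested. The shorter probes there read as little as 26.3 units for miR-200a and 41.9 for miR-141 in the virgin.

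The clusters were then compared within each array, as the mean log2 level of miR-200a, miR-200b and miR-429 minus that of miR-200c and miR-141. This difference is free of any constant that scales a whole array, and only its change between arrays can be read. In sheep it was -1.26, -1.84, -2.36, -1.65 and -1.95 in stage order, a mean of -1.81 ± 0.40 (SD, n = 5 arrays). In mouse it was -0.76, -0.48, -0.83, -1.12 and -0.90, a mean of -0.82 ± 0.23. The species did not overlap, and their means differed by -0.99. Leaving out miR-429 brought the means to -0.81 ± 0.28 in sheep and -0.75 ± 0.30 in mouse, a difference of -0.058. The species gap between the clusters was thus carried by miR-429, and the other pair of the chromosome 4 cluster kept its place beside miR-200c and miR-141 within the spread over stages.

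In the seed groups miR-429 carried most of the species gap, and a smaller gap remained without it. The mean of miR-200b, miR-200c and miR-429 minus that of miR-200a and miR-141 was -0.054, -0.49, -0.96, -0.44 and -0.48 in sheep, a mean of -0.49 ± 0.32 (SD, n = 5 arrays). In mouse it was 1.06, 1.16, 0.55, 0.58 and 0.14, a mean of 0.70 ± 0.42. The means of the species differed by -1.18. Without miR-429 the means were 0.78 ± 0.21 and 1.07 ± 0.21, a difference of -0.28 that exceeded either SD. The ranges over arrays (0.48 to 1.04 and 0.80 to 1.29) overlapped. The highest mouse values without miR-429, 1.26 in the virgin and 1.29 at gestation day 10, were those of the second slide. The mouse arrays of the first slide ran from 0.80 to 1.01, so the part of the slide in this smaller gap was not settled. Between lactation and gestation, over both species, the cluster difference moved by -0.17 and the seed difference by -0.21. Without miR-429 they moved by 0.15 and 0.091, all less than the SD over arrays of either species.

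**Figure D2:**
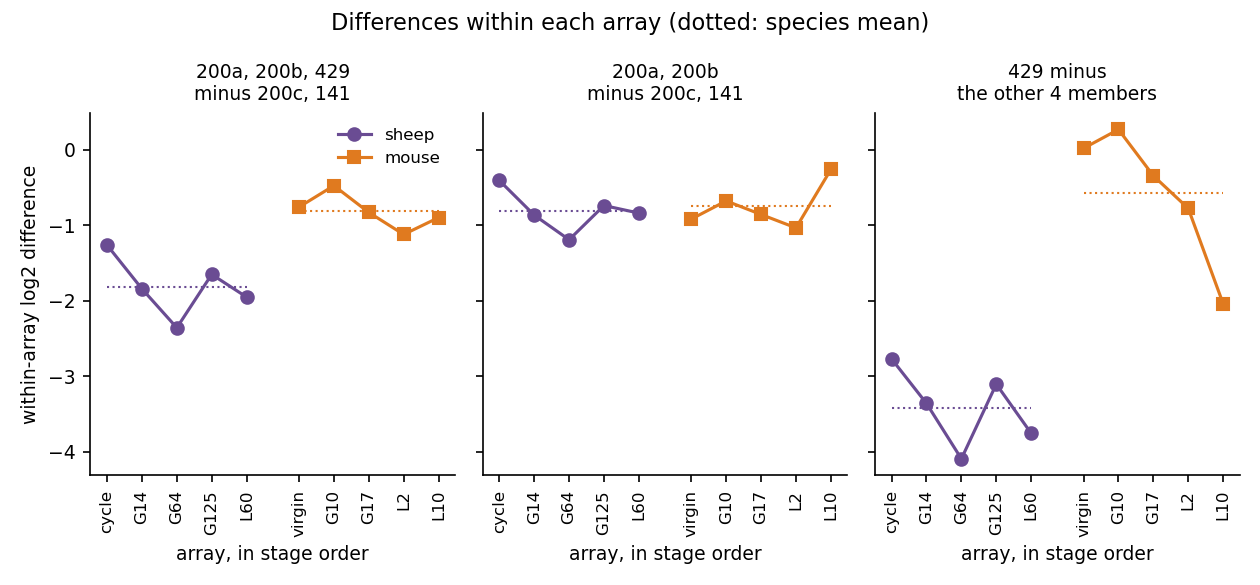
Within-array log2 differences (vertical axis) are plotted for the 5 sheep and 5 mouse arrays in stage order, 1 array per point, with the mean of each species dotted. The species are apart for the full cluster difference (means -1.81 and -0.82) and lie at like heights once miR-429 is left out (-0.81 and -0.75), while miR-429 minus the other 4 members goes down in mouse from 0.27 at gestation day 10 to -2.04 at lactation day 10.

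**Figure D3:**
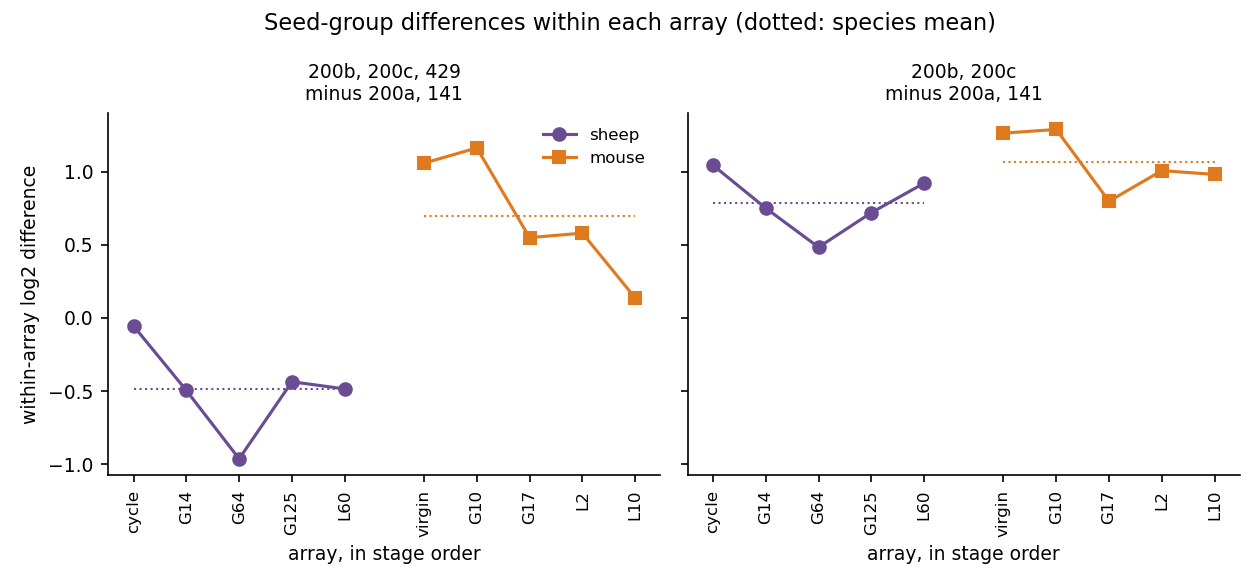
The within-array log2 difference between the seed groups (vertical axis) is plotted in the same way, with miR-429 (left) and without it (right). With miR-429 the sheep arrays (-0.96 to -0.054) lie below the mouse arrays (0.14 to 1.16). Without it the ranges overlap, at 0.48 to 1.04 in sheep and 0.80 to 1.29 in mouse.

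How miR-429 moved against the mean of the other 4 members was added after its values had been seen. In sheep this difference was -2.77, -3.36, -4.09, -3.10 and -3.75, a mean of -3.42 ± 0.52 (SD, n = 5 arrays). In mouse it was 0.017, 0.27, -0.35, -0.78 and -2.04, a mean of -0.58 ± 0.91. The mouse values were lower at each stage from gestation day 10 on, and the one at lactation day 10 was the nearest to sheep. Its signal there was 186 units, against 473.5 at lactation day 2, on the dimmest array of the series.

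Pairs of members were also compared by the SD over arrays of their log2 difference, pooled within species, where a small SD means that the pair kept its ratio. The smallest was 0.20 for miR-200a with miR-200b, cluster neighbours with different seeds. Next came miR-200b with miR-200c at 0.24, the same seed in different clusters, and miR-200a with miR-200c at 0.28, which share neither. miR-200c with miR-141, the chromosome 6 neighbours, had 0.34. miR-141 had 0.42 with miR-200b and 0.43 with miR-200a. The 4 pairs with miR-429 had the largest SDs, 0.68 with miR-200c, 0.72 with miR-200b, 0.83 with miR-200a and 0.83 with miR-141. miR-200b and miR-429, the only pair sharing both cluster and seed, were thus among the looser ones.

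Neither grouping ordered the pairs. Those sharing a cluster alone ran from 0.20 to 0.83, those sharing a seed alone from 0.24 to 0.68 and those sharing neither from 0.28 to 0.83. Over all 4371 pairs of the 94 miRNAs detected on every array the median was 0.88, and 0.297% of the pairs had a smaller SD than miR-200a with miR-200b. For miR-429 with miR-141 it was 45.7%. The looseness of miR-429 came more from mouse, where its SD with miR-200a was 1.09 and with miR-200b 0.94, than from sheep, where these were 0.43 and 0.38. In mouse the array at lactation day 10 stood apart, with miR-429 minus the mean of the other members at -2.04. On the other mouse arrays it was -0.78 to 0.27, and the SDs without lactation day 10 were not computed.

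**Figure D4:**
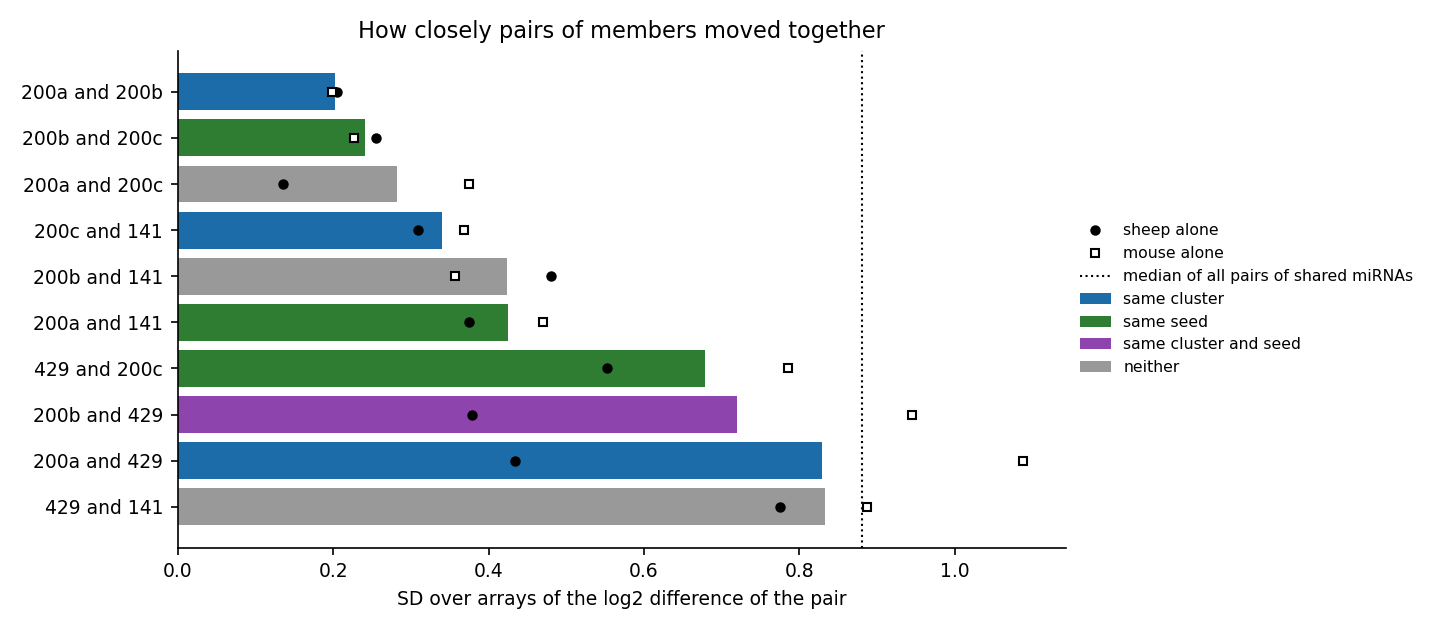
Bars give the SD over arrays of the log2 difference of each pair of members, pooled within species and coloured by what the pair shares, with sheep alone as filled circles and mouse alone as open squares. The 6 pairs without miR-429 lie between 0.20 and 0.43, the 4 pairs with it between 0.68 and 0.83, and all bars are below the dotted median of 0.88 over all pairs of miRNAs detected on every array.

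The passenger strands, the opposite arms of the hairpins that are usually discarded, were close to background. miR-200a* and miR-200b* were detected on 8 of 10 arrays, all but the mouse virgin and gestation day 10 arrays of the second slide, and their highest signals were 24.5 and 30.6 units. Each lay at the floor on 9 of 10 arrays. miR-141* was detected on the 3 mouse arrays of the first slide, at 15.9, 12.4 and 6.51 units, and on none in sheep. miR-200c* was detected on 0 of 10 arrays. miR-200b* was one of the 2 miRNAs called for a species difference between lactation and gestation (0.28, limma adjusted p = 0.0038). As it was above the floor on 1 array, sheep lactation, that call rests on a single value.

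Of the fibroblast and smooth muscle list, 6 of 7 listed miRNAs were on the array and all 6 were lower in lactation than in gestation, by a median of -1.89, and lower in late than in earlier gestation, by a median of -1.09. Limma called 0 of 6 in both (4 and 3 at an unadjusted p below 0.05), and in lactation against animals not pregnant it called 2, miR-199b (-2.57) and miR-214 (-2.99), where 3.76% of all miRNAs were called. The smooth muscle miRNAs miR-143 (0.56) and miR-145 (0.023) were on the other side of 0 there and did not pass. In mouse miR-143 was higher at gestation day 17 (-0.91) than in the virgin (-2.43), as the family was, and stood at -1.52 and -1.41 in lactation. miR-145 was above the floor in mouse at gestation day 17 alone. The list's median stayed below 0 in both under each scaling, but in lactation against gestation 1 of 6 was higher with the percentile over all miRNAs and 2 with the authors' value table. The summed scaled level of that list ran from 0.872 in lactation to 3.19 in cycle in sheep, and from 0.871 at lactation day 10 to 4.39 at gestation day 10 in mouse. miR-214 was at the floor in sheep lactation and at mouse lactation day 10. The part of this in the levels of the family was not tested.

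The list of other miRNAs typical of epithelium was dim, with 3 to 5 of its 7 members at the floor on each sheep array and 1 to 4 on each mouse array. miR-203 and miR-182 were at the floor on all sheep arrays and miR-31 on all mouse arrays, so no course could be read there. Of the 7, 4 were higher in lactation than in gestation (median 0.43) and 5 in late than in earlier gestation (median 0.15), with 0 called in either (1 and 0 at an unadjusted p below 0.05). Without scaling the medians were -0.59 and 0.68. miR-205, known from basal epithelial cells, was highest at sheep day 64 (-0.090), where 4 family members were lowest, and lower at day 125 (-2.39). miR-96 went in mouse from -4.55 in the virgin to -0.59 at lactation day 10, higher on each array as most of the family was, but in sheep it was highest in cycle (-2.13). miR-183 was at the floor in the mouse virgin and at -3.99, -3.46, -2.81 and -2.97 on the later arrays, and miR-182 was above the floor from gestation day 17 on (-4.20, -3.66 and -4.27). miR-375 was at the floor on 7 arrays and above it on the 3 lactation arrays (-0.97, -3.84 and -1.29). The summed level of the list ran from 0.434 to 1.15 in sheep and from 0.309 to 1.45 in mouse.

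The remaining 5 lists were as follows. In late against earlier gestation the median difference was 0.24 for the 4 adipocyte-associated miRNAs, -0.057 for the 6 leukocyte miRNAs, 0.027 for the 3 erythroid, -0.094 for the 2 endothelial and 0.96 for the 4 striated muscle miRNAs. In lactation against gestation the medians were 0.45, -0.41, 0.41, 0.047 and -1.01 in the same order, and miR-103 of the adipocyte-associated list was the only one of their members called (1.01, limma adjusted p = 0.0486). In lactation against animals not pregnant the medians were 0.48, -0.14, -0.47, 0.20 and -2.40, with 0 members called. At an unadjusted p below 0.05 there were 2 adipocyte-associated, 1 leukocyte and 1 striated muscle miRNA. miR-126-5p was at the floor on all arrays, so each endothelial median averages miR-126-3p with a change of 0. All 4 striated muscle miRNAs were at the floor on the mouse arrays other than the virgin and gestation day 17. Their medians therefore rest mainly on those arrays. The summed level of the striated muscle list was 0.116 to 0.136 in sheep, next to the floor. It reached 0.753 at mouse gestation day 17 and 1.93 in the mouse virgin. That of the erythroid list ran in mouse from 1.73 at gestation day 17 to 5.97 in the virgin, the array on which the family was lowest. Their part in the levels of the family was not tested.

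Finally, the miRNAs whose course was most like that of the family were sought among the 89 others detected on all arrays. Likeness was the Pearson correlation with the mean of the 5 members over the 10 arrays after taking out each species' mean, and the arrays share their slide and scaling. The highest were miR-148a (r = 0.93), which is abundant in milk, miR-30b (0.90), miR-720 (0.89), miR-212 (0.89, at the floor on 3 arrays) and let-7a (0.86). The lowest were miR-199b* (-0.91), miR-199a-5p (-0.87) and miR-99a (-0.87), and the median over the 89 was -0.078. miR-148a had log2 levels of -1.70, -2.14, -2.75, -0.19 and 1.42 in sheep and -1.76, -1.18, 0.99, 2.00 and 2.09 in mouse. Like most of the family it was lowest at sheep day 64, but it was higher in sheep lactation than at day 125, where all 5 members were lower with this scaling and 3 were higher with the percentile over all miRNAs. miR-199a-5p had -0.78, -0.59, -0.18, -2.60 and -3.47 in sheep, the reverse of the family up to day 125, and was just above the floor at mouse lactation day 10 (-5.09).

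Within the family, each member's correlation with the mean of the other 4 was 0.99 for miR-200c, 0.98 for miR-200b, 0.97 for miR-200a, 0.93 for miR-141 and 0.77 for miR-429. For miR-429 it was 0.90 over the sheep arrays and 0.81 over the mouse arrays.

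**Figure D5:**
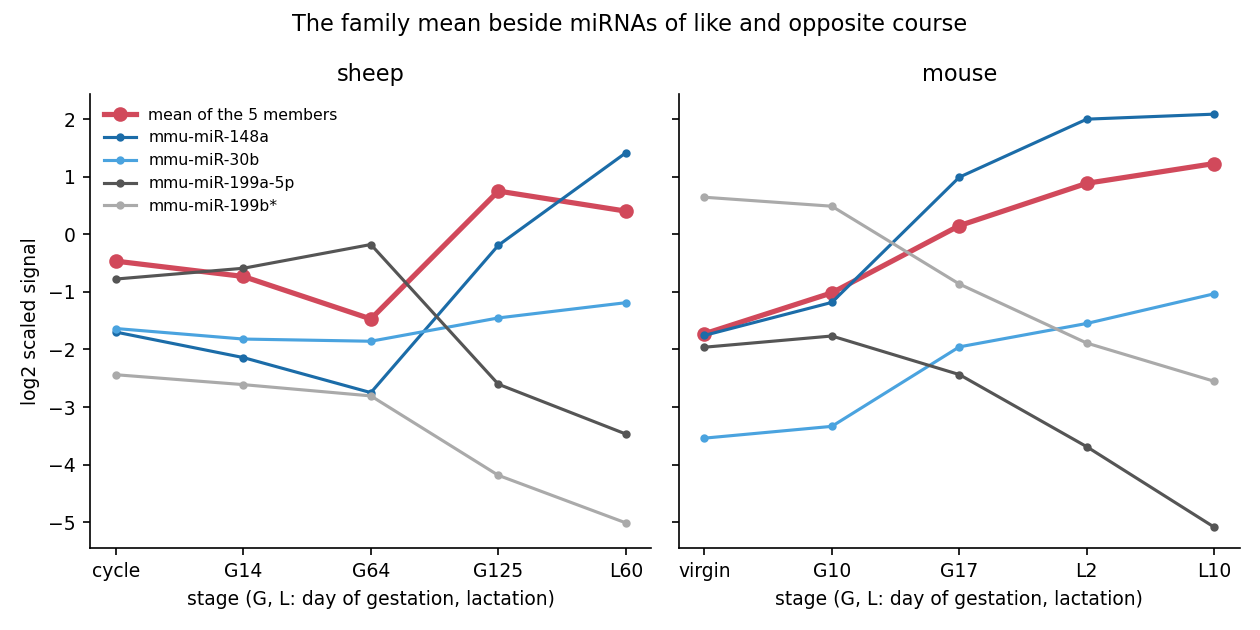
The mean log2 level of the 5 members (thick line) is plotted by stage beside miR-148a and miR-30b, which had the highest correlations with it, and miR-199a-5p and miR-199b*, which had the lowest, 1 array per point. In sheep the family mean goes from -1.47 at day 64 to 0.75 at day 125 and 0.40 in lactation, while miR-148a goes on to 1.42.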

How the data were processed

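Scanner files of 10 single-colour Agilent miRNA arrays were used. Per the file headers they were made with Agilent Feature Extraction 10.5.1.1 (9.5 per the submitters' processing notes). The deposited values are intensities, background-subtracted within an array and not scaled between arrays, with detection flags. The authors' value table also holds intensities, proportional to the total signal with a constant per array whose basis is not given in the sources used here, and served as an alternative.

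Outlier spots and 10 viral miRNAs were left out. Spots were averaged per probe and probes per miRNA, divided by the array's 75th percentile over the 94 miRNAs detected on all arrays, floored at 0.029 and put on a log2 scale. The 213 miRNAs detected on 3 or more arrays were tested with limma 3.58.1 in R 4.3.3 (lmFit, eBayes, Benjamini-Hochberg, threshold 0.05). The model had species and 3 stage classes, 4 with gestation split, or 6 means for the species difference. In the models with 3 or 4 stage classes the p-values rest on the spread between days within a class. They also rest on differences between the species in their stage changes. With 6 means they rest on the spread between days within a species and stage class. The script was tested on simulated data. The number of arrays limits the precision.

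The members, the marker lists and the split of gestation were chosen with earlier results of these data known. Named miRNAs were the 5 members, their passenger strands, members of the 7 marker lists, and the 5 most like and 3 least like the family mean; the list members given with values were picked after seeing them. Alternatives covered scaling, background correction, probe summary, value table, floor, filter, slide and each array left out.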

Additional observations from a re-analysis of the deposited data

Results flagged for a closer look

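For 4 members the step from late gestation to lactation went one way in sheep and the other way in both mouse arrays. The sheep lactation day 60 minus gestation day 125 differences were -0.419 for miR-200a, -0.118 for miR-200b, -0.117 for miR-200c and -0.219 for miR-141. In mouse, lactation days 2 and 10 minus gestation day 17 gave 0.581 and 1.81 for miR-200a, 0.887 and 1.62 for miR-200b, 0.968 and 1.40 for miR-200c and 0.855 and 0.842 for miR-141. This difference between species was not tested. Without scaling between arrays the mouse differences were below 0 too, from -1.09 for miR-141 at lactation day 10 to -0.12 for miR-200a on the same day. The median of all tested miRNAs was then -0.84 from mouse gestation day 17 to lactation day 2. With the 75th percentile over all miRNAs, miR-200b (0.24), miR-200c (0.24) and miR-141 (0.14) were above 0 in sheep. With quantile normalization miR-200b (0.49) and miR-200c (0.32) were above 0 in sheep as well and miR-141 was at 0. So the opposite directions held for miR-200a alone under both of these scalings, at -0.061 in sheep with the percentile over all miRNAs. All 4 members kept opposite directions with normexp, the brightest probe, the authors' value table and the lower floor.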

How the results depend on the processing

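The counts of miRNAs called changed with the processing. In lactation versus gestation 6 were called. The count was 0 with the 75th percentile over all miRNAs, normexp, the brightest probe, the authors' value table, no filter, slide as a term or the first slide alone, 1 with quantile normalization, 22 without scaling and 24 with a floor 4 times lower. By limma, 13 to 40 miRNAs had an unadjusted p below 0.05 where none was called. In lactation versus not pregnant 8 were called. This became 1 with the percentile over all miRNAs or slide as a term, 2 with no filter, 4 on the first slide alone, 29 with the lower floor, and 0 with quantile normalization, normexp, the authors' value table or the brightest probe, where 21 to 41 had an unadjusted p below 0.05. In sheep versus mouse the 46 calls became 87 without scaling, 18 with normexp, 14 with the authors' value table and 95 with the lower floor. Late versus earlier gestation had 2 calls with the brightest probe or the lower floor, and lactation versus late gestation 1 with the lower floor. The species difference in lactation versus gestation had 5 with the percentile over all miRNAs, slide as a term or the first slide alone, 9 with quantile normalization, 1 without scaling or with normexp, 4 with the authors' value table or the brightest probe and 0 with the lower floor, where 16 had an unadjusted p below 0.05. Leaving out 1 array at a time gave 0 to 5 calls in lactation versus gestation, 1 to 8 in lactation versus not pregnant, 35 to 53 in sheep versus mouse, 0 to 5 in late versus earlier gestation, 0 to 3 in lactation versus late gestation and 0 to 19 in the species difference. Under none of these was a member called in a comparison of stages. Without scaling, all members except miR-429 were called higher in sheep. In that setting 69 of the 213 miRNAs tested were called higher in sheep, and the median of all tested was 0.69 higher there.

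The cluster difference between the species was -1.13 to -0.859 with each array left out, -0.862 on the first slide alone and -0.058 without miR-429. Its change from gestation to lactation was -0.276 to -0.0278 with each array left out, 0.145 with quantile normalization and 0.146 without miR-429. The seed difference between the species was -1.32 to -1.06 with each array left out, -0.907 on the first slide alone, -0.708 with normexp and -0.283 without miR-429. Its change from gestation to lactation was -0.431 to -0.0224, 0.0137 with quantile normalization and 0.0911 without miR-429. Single members turned direction as follows, and the cause was not tested. Without scaling, miR-429 was -0.473 in lactation versus gestation and -0.282 versus not pregnant, and in lactation versus late gestation miR-141 was -0.469, miR-200a -0.385, miR-200b -0.222 and miR-200c -0.302. The medians of all tested miRNAs without scaling were -0.67, -0.78 and -0.60 in these comparisons, in the same order. In sheep versus mouse, miR-200a, miR-200b and miR-200c were -0.0276, -0.176 and -0.030 with slide as a term and -0.0637, -0.241 and -0.0461 on the first slide alone, where miR-429 in lactation versus not pregnant was -0.145. In the species difference, miR-200b (0.145) and miR-200c (0.257) turned with the percentile over all miRNAs and miR-429 (-0.551) with normexp. With an array left out, miR-429 ranged from -0.0483 to 1.71 in lactation versus not pregnant, from -0.765 to 0.00585 in lactation versus late gestation and from -0.421 to 1.09 in the species difference. No paired analysis was possible because no label numbers the animals, and the replicate numbers within a stage were given by order alone.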
